A study of Mus musculus with 2 samples.

Results

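The genes described here are 10 histone deacetylase and sirtuin genes of the mouse, Hdac1, Hdac2, Hdac3, Hdac6, Hdac8, Hdac10, Sirt1, Sirt2, Sirt6 and Sirt7, out of 21887 protein-coding genes. They were chosen by name, with earlier results of these data known. The peaks belonging to them were those that overlapped a gene from its annotated start to end or the 20 kb on either side. This gave 43 of 58229 peaks in the wild-type list and 31 of 55149 in the KAT8-cKO list. The peaks mark histone H4 acetylated at lysine 16 (H4K16ac) and come from CUT&Tag, in which an antibody guides a transposase that inserts sequencing adapters into the DNA next to the modified histone. The cells were primary macrophages grown from mouse bone marrow with M-CSF at 20 ng/ml. Both groups received R848, a small agonist of the endosomal receptor TLR7, at 100 ng/ml for 2 h, so no unstimulated cells enter these comparisons. One group was wild type (label WT) and the other lacked KAT8, the acetyltransferase that places H4K16ac (label KAT8-cKO, read as a conditional knockout). The sources used here do not give the driver of the deletion, its completeness or the age, sex and number of the mice. Each group is 1 library, so no difference below could be set against variation between animals and no test between genotypes was possible.

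Histone deacetylases and sirtuins take acetyl groups off lysines and so oppose acetyltransferases such as KAT8. The zinc-dependent class I enzymes HDAC1, HDAC2 and HDAC3 work in the nucleus inside corepressor complexes, among them SIN3, NuRD and CoREST for HDAC1 and HDAC2 and the NCoR complex for HDAC3. The sirtuins depend on NAD+, and SIRT1 and SIRT2 are known to remove H4K16ac itself. In macrophages HDAC3 is known as a regulator of inflammatory gene programmes, and SIRT1 as a deacetylase of the NF-κB subunit RelA. A peak at such a gene says where the mark was called and does not measure how much of the enzyme was made.

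The stretches just upstream of 5 transcript starts are shown because the peaks sat on them in different ways. The whole window at the start was covered in both lists at Hdac2, Hdac6 and Sirt2. At Hdac8 95.3% of it was covered, in the wild-type list alone, and at Sirt1 the peaks lay mostly beside it. All come from RefSeq (build GRCm38.p6, the assembly behind mm10), are written 5′ to 3′ on the strand of the gene and end at the base before the transcript start. They are chr10:36974294-36974543 on the plus strand for Hdac2, chrX:7947890-7948139 on the minus strand for Hdac6, chrX:102505159-102505408 on the minus strand for Hdac8 and chr10:63339036-63339285 on the minus strand for Sirt1. For Sirt2 the stretch is chr7:28766645-28766751 on the plus strand, the 107 bases between Sirt2 and Nfkbib. At Hdac2, Hdac6 and Hdac8 the annotated gene begins upstream of the transcript start used here. Most of the stretch printed for each of them therefore lies inside the annotated gene. Capitals mark the NF-Y motif CCAAT, the Sp1 motif GGGCGG and the MYC-type motif CACGTG on either strand, and matches that overlap run together.
Hdac2: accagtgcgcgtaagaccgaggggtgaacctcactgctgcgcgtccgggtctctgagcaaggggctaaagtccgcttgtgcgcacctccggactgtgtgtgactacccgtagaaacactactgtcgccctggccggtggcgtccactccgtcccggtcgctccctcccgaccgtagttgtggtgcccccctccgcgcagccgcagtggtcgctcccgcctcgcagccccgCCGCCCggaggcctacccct
Hdac6: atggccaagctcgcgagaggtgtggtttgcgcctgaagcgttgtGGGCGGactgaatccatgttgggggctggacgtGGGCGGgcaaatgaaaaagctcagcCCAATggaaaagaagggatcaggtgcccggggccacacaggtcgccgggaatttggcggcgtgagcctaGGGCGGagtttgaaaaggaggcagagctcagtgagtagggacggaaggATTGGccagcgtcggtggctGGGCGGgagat
Hdac8: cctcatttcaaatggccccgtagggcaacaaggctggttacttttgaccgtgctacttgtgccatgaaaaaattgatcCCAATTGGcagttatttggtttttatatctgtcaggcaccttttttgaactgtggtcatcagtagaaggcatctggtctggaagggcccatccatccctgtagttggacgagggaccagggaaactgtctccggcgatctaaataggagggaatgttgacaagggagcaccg
Sirt1: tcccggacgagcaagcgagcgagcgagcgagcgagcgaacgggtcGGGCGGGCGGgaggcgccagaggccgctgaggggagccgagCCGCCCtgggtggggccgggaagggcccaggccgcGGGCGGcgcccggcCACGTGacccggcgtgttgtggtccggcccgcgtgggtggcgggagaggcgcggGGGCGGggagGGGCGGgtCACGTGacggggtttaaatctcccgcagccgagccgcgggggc
Sirt2: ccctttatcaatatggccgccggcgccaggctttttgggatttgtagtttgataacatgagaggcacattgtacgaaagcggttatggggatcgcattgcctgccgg

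Windows of 300 bases, from 250 before to 50 after a transcript start, were available for 7 of the 10 genes, with 2 starts for Sirt6. Hdac1, Hdac3 and Hdac10 had no entry. The Sirt1 window held 47 CpG dinucleotides and that of Hdac2 held 36, more than 98.2% and 91.8% of 21263 windows of protein-coding genes, whose median was 13. Hdac8 had the fewest of the family, 6. Hdac6 and the upstream Sirt6 start each held 20, the downstream Sirt6 start 21, Sirt7 17 and Sirt2 16. CACGTG was in the Sirt1 window at 2 places and in 7.84% of all windows. CCAAT was in the windows of Hdac6, Hdac8 and Sirt2 (38.2% of all windows), and GGGCGG in 6 of the 8 windows of the family (46.2%). CCGGAA, the core of ETS factor motifs, and GCGCATGC, part of the NRF1 motif, were each in 1 window of Sirt6 and in that of Sirt7, against 18.7% and 3.52% of all windows. ATGGCGGC, a YY1 core, was in 0 of the 8 windows (3.02% of all). A motif match here is a description of the letters and not a bound site.

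A peak was called at a gene end in both lists for most of the 10 genes. With only peaks of a q-value under 0.05, this held for 5 of them. A peak counted as an end peak where it came within 1 kb of the first or last annotated base. In the wild-type list 9 of the 10 genes had one, where 46.8% of all protein-coding genes did, and in the KAT8-cKO list 8 of 10 had one (43.3% of all genes). In both lists were 7 of 10, namely Hdac1, Hdac2, Hdac3, Hdac6, Sirt1, Sirt2 and Sirt7 (35.8% of all genes). Hdac8 and Sirt6 had one in the wild-type list only (11.1%), and Hdac10 in the KAT8-cKO list only (7.52%). At 6 of the 9 genes marked in wild type the end peak itself was overlapped by a KAT8-cKO peak, near the 70.3% of all marked genes. Of the rest, Hdac8 and Sirt6 had no KAT8-cKO end peak, and at Sirt7 the peaks of the lists lay apart. Seen from the other list, 6 of 8 genes had a KAT8-cKO end peak met by a wild-type peak (75.7% of marked genes). No member was without an end peak in both lists, 0 of 10, where 45.7% of all genes were. The genes were chosen with earlier results of these data known, so these counts do not show a family marked more often than others. Of the 8 deacetylase and sirtuin genes left out, Hdac4, Hdac9 and Hdac11 had no end peak in either list. Counted at transcript starts, of the 7 genes with a known start 6 had a wild-type peak within 1 kb (46.7% of 17492 genes), 5 a KAT8-cKO peak (42.7%) and 4 both (36.4%).

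Peaks are given below with their fold, the deposited enrichment over the peak caller's background in that library. The end peaks of members are also given with −log10 q, their strength of evidence. A −log10 q above about 1.3 means a q-value under 0.05. Folds of different libraries depend on their depth and background, so values set side by side describe each list and do not measure a change.

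**Figure D1:**
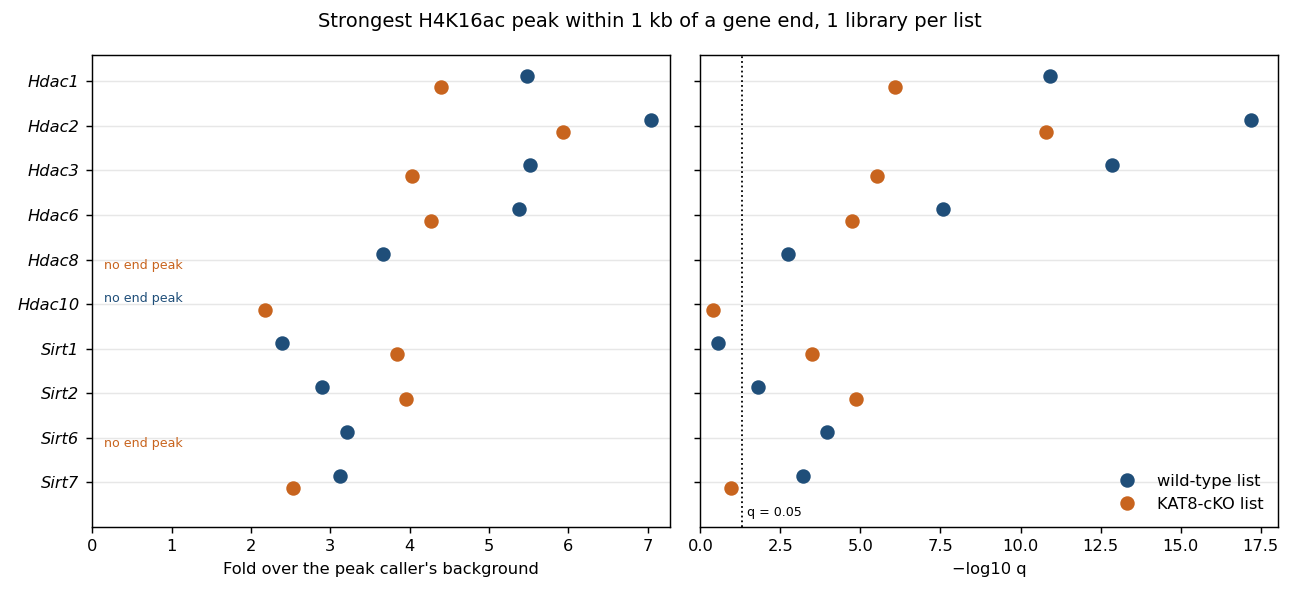
Strongest H4K16ac peak within 1 kb of an end of each gene, with fold over the peak caller's background on the left and −log10 q on the right, blue for the wild-type library and orange for the KAT8-cKO library (1 library each, no error bars). Hdac2 is the highest in both lists (7.03 and 5.93), and Sirt1 and Sirt2 lie lowest of the marked genes in the wild-type list and mid-order in the KAT8-cKO list.

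The nuclear class I enzymes Hdac1, Hdac2 and Hdac3 had strong end peaks in both lists. At Hdac2 (chromosome 10, 36974297 to 37001889, 27.6 kb) the wild-type peak at chr10:36974099-36975207 had a fold of 7.03 at −log10 q 17.2. The KAT8-cKO peak at chr10:36973929-36974896 had a fold of 5.93 at −log10 q 10.8, and the peaks shared 798 bp. Their summits lay 200 and 254 bp upstream of the transcript start, and both peaks covered 100% of the window whose upstream part is shown above. Counted from the first annotated base of the gene, the wild-type summit was 47 bp inside it and the KAT8-cKO summit 7 bp outside. At 1109 and 968 bp these were the widest end peaks of the family in their lists.

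At Hdac1 (chromosome 4, 129516104 to 129542646, 26.5 kb) the end peak sat at the higher-coordinate end in both lists, with 5.48-fold enrichment at −log10 q 10.9 in wild type (chr4:129542531-129542968). In the KAT8-cKO list the fold was 4.40 and the −log10 q 6.08 (chr4:129542636-129543021), with summits 66 bp apart. At Hdac3 (chromosome 18, 37936971 to 37955015, 18 kb) the fold was 5.52 with a −log10 q of 12.9 in wild type and 4.03 with 5.52 in the KAT8-cKO list, and the summits were 11 bp apart. The Hdac3 peak lay at the higher-coordinate end. The neighbouring gene Rell2 lies 38 bp from Hdac3, so the peak falls in the end window of both genes and cannot be assigned to one of them.

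In the flanks of Hdac1 and Hdac3 the peaks common to both lists lay at ends of neighbouring genes. Around Hdac1 there were 5 flanking peaks in wild type, with folds from 2.63 to 3.30, and 1 in the KAT8-cKO list. That 1 (fold 3.45, −log10 q 3.77) overlapped the wild-type peak at an end of Marcksl1 (3.01, 1.86). The other 4 wild-type peaks had no counterpart, the strongest of them 18.7 kb from the gene (fold 3.30, −log10 q 3.42). Around Hdac3 each list had 4 flanking peaks, of which 3 were common: at an end of Diaph1 (3.77 and 3.95), at ends of Rell2 and Fchsd1 (2.32 and 2.72) and at an end of Fchsd1 (2.91 and 2.55). The wild-type peak of fold 2.32 (−log10 q 0.77) and the KAT8-cKO peak of fold 2.55 (0.87) did not reach a q-value under 0.05. Gene bodies of these class I genes held little: a weak KAT8-cKO peak each in Hdac2 (fold 2.56, −log10 q 0.66) and Hdac3 (2.68, 1.01), with no wild-type counterpart. Hdac2 had a single flanking peak, in wild type, 6.4 kb away (2.69, 0.77).

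The X-linked members stood in windows almost free of other peaks. HDAC6 is a largely cytoplasmic enzyme that deacetylates tubulin, and HDAC8 is a class I enzyme that acts on the cohesin subunit SMC3. Hdac6 (X, 7930116 to 7948047, 17.9 kb) had 1 peak in each list, at its transcript start. The wild-type peak (chrX:7947672-7948237) had a fold of 5.37 at −log10 q 7.57, and the KAT8-cKO peak (chrX:7947835-7948217) one of 4.27 at −log10 q 4.74. The latter lay wholly inside the former, and both are also in the end window of the lncRNA gene Gm39488. Among X-linked genes with an end peak, Hdac6 ranked 10 of 179 by fold in wild type and 8 of 115 in the KAT8-cKO list.

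Hdac8 is the longest gene of the family (X, 102284638 to 102505381, 220.7 kb). It had 1 wild-type peak (chrX:102504977-102505394, fold 3.66, −log10 q 2.73), with its summit 104 bp upstream of the transcript start, and 0 KAT8-cKO peaks in the gene or its flanks. That peak covered 95.3% of the window at the start. The lncRNA gene Gm32262 ends in the same place, so the peak is in its end window too. Few peaks are usual on this chromosome. End peaks were present at 18.5% of 966 X-linked genes in wild type and at 11.9% in the KAT8-cKO list. Of 43 X-linked genes of 150 to 300 kb, 60.5% had 0 wild-type peaks with their flanks and 69.8% had 0 KAT8-cKO peaks, while the median of 859 autosomal genes of that length was 5 in both lists. The single wild-type call at Hdac8 was therefore not sparse for an X-linked gene of its size. What part the X chromosome has in the missing KAT8-cKO peak was not tested.

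Hdac10, whose enzyme is known as a polyamine deacetylase, was the weakest member. The gene (chromosome 15, 89123303 to 89128700, 5.4 kb) had no wild-type peak at its ends or in its body. The KAT8-cKO list held a peak at each end (chr15:89124197-89124539 and chr15:89128480-89128795), with folds of 2.18 and 2.17 and −log10 q of 0.38 and 0.37. Neither had a q-value under 0.05, and 98.5% of genes with a KAT8-cKO end peak had one at least as strong, so the marking of Hdac10 in that list rests on calls near the bottom of it. Tubgcp6 lies 94 bp from the gene and shares the former window, and the lncRNA Gm46530 shares the latter. The peak of fold 2.18 entered its end window only with its edge, as its summit lay 1116 bp inside the gene. Of 3 wild-type flanking peaks, 2 were met by KAT8-cKO peaks at similar folds (2.35 in both lists, and 2.41 and 2.34). None of these had a q-value under 0.05 (−log10 q 0.77 and 0.85, and 0.77 and 0.66). The third wild-type flanking peak, at an end of Mapk11 (3.21, −log10 q 2.04), was not met by a KAT8-cKO peak.

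Sirt1 and Sirt2 had the lowest end-peak folds among the marked members in wild type and stood higher in the KAT8-cKO list. At Sirt1 (chromosome 10, 63319005 to 63339035, 20 kb) the wild-type peak just inside the transcript start (chr10:63338653-63338980) had a fold of 2.39 at −log10 q 0.56, short of a q-value of 0.05. The KAT8-cKO peak began at the same base (chr10:63338653-63339020) and had a fold of 3.84 at −log10 q 3.49. Their summits were 13 bp apart, 190 and 203 bp downstream of the start. A second KAT8-cKO peak (chr10:63339452-63339685, fold 3.42, −log10 q 2.37) had its summit 526 bp upstream of the start and no wild-type counterpart. The CpG-rich stretch printed for Sirt1, with both CACGTG matches, fell between the KAT8-cKO peaks. The 300-base window around the start was covered by 35 bases of KAT8-cKO peak and 0 bases of wild-type peak.

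Elsewhere at Sirt1 the lists shared nothing. Wild type had 2 body peaks (folds 2.69 and 2.53) and 2 flanking peaks (both 2.93), and the KAT8-cKO list 1 flanking peak (2.35). None of these 5 had a q-value under 0.05.

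Sirt2 (chromosome 7, 28766752 to 28788665, 21.9 kb) had a start peak of fold 2.89 and −log10 q 1.80 in wild type (chr7:28766296-28766814) and of fold 3.95 and −log10 q 4.85 in the KAT8-cKO list (chr7:28766273-28766819). The wild-type peak lay wholly within the KAT8-cKO peak. The summits were 262 bp apart, 93 and 355 bp upstream of the Sirt2 start. Nfkbib, which encodes an inhibitor of NF-κB, starts on the opposite strand 108 bp away, and the peak of each list spanned both starts, so a share of either gene in it cannot be set. Wild type had a further peak at the 3′ end, where Rinl lies 208 bp away (2.51, −log10 q 1.08), and none was called there in the KAT8-cKO list.

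Sirt2 had the most crowded surroundings of the family, with 10 wild-type and 7 KAT8-cKO peaks. Its 7 wild-type flanking peaks had folds from 2.12 to 3.17, and the 4 KAT8-cKO ones from 2.35 to 2.56. Only 2 of them overlapped between lists, with folds of 2.63 and 2.35 at 9.9 kb from the gene and of 2.97 and 2.35 at about 8 kb. Of these, only the wild-type peak at about 8 kb reached a q-value under 0.05 (−log10 q 2.10). In the body, wild type had a peak 1629 bp downstream of the start (2.70, −log10 q 1.36). The KAT8-cKO list instead had 2 near the lncRNA Gm19897 (2.76, 1.45 and 2.11, 0.34).

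Sirt6 and Sirt7 encode chromatin-bound sirtuins, SIRT6 known for DNA repair and glucose metabolism and SIRT7 for its place in the nucleolus. At Sirt6 (chromosome 10, 81621787 to 81627792, 6 kb) the wild-type peak at chr10:81626990-81627439 had a fold of 3.21 at −log10 q 3.94. Ankrd24 lies 28 bp from Sirt6 and the peak is in its end window too. The summit lay 2 bp inside the downstream one of 2 annotated starts. The peak covered 55.7% of the window of that start and 0% of the other. No KAT8-cKO peak was called at the gene, yet the flanks held shared peaks on both sides. These were at the pseudogene BC025920 15.2 kb away (2.48 and 3.04) and inside Ankrd24 15.6 kb away (2.76 and 2.35). The wild-type peak at BC025920 (−log10 q 0.92) and the KAT8-cKO peak inside Ankrd24 (0.66) did not reach a q-value under 0.05. The KAT8-cKO list thus had peaks around Sirt6 but none at it.

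Sirt7 (chromosome 11, 120618371 to 120625014, 6.6 kb) counted as marked in both lists, but in different places. The wild-type peak (chr11:120617756-120618139, fold 3.12, −log10 q 3.19) lay beside the 3′ end, 0.2 kb outside the gene, with its summit in the neighbouring Pcyt2. The KAT8-cKO list had a weak peak just inside the 3′ end (chr11:120618394-120618616, 2.17, 0.37). It had another upstream of the start (chr11:120625185-120625523, 2.53, 0.95), inside Mafg. Neither had a q-value under 0.05 and none of the 3 overlapped a peak of the other list. Such a state was uncommon: 8.89% of genes marked in both lists had no wild-type end peak overlapped by a KAT8-cKO peak. Of 6 wild-type flanking peaks 1 was shared, at the ends of Alyref and Anapc11 (3.62 with −log10 q 3.91 in wild type, 2.44 with 0.69 in the KAT8-cKO list).

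**Figure D2:**
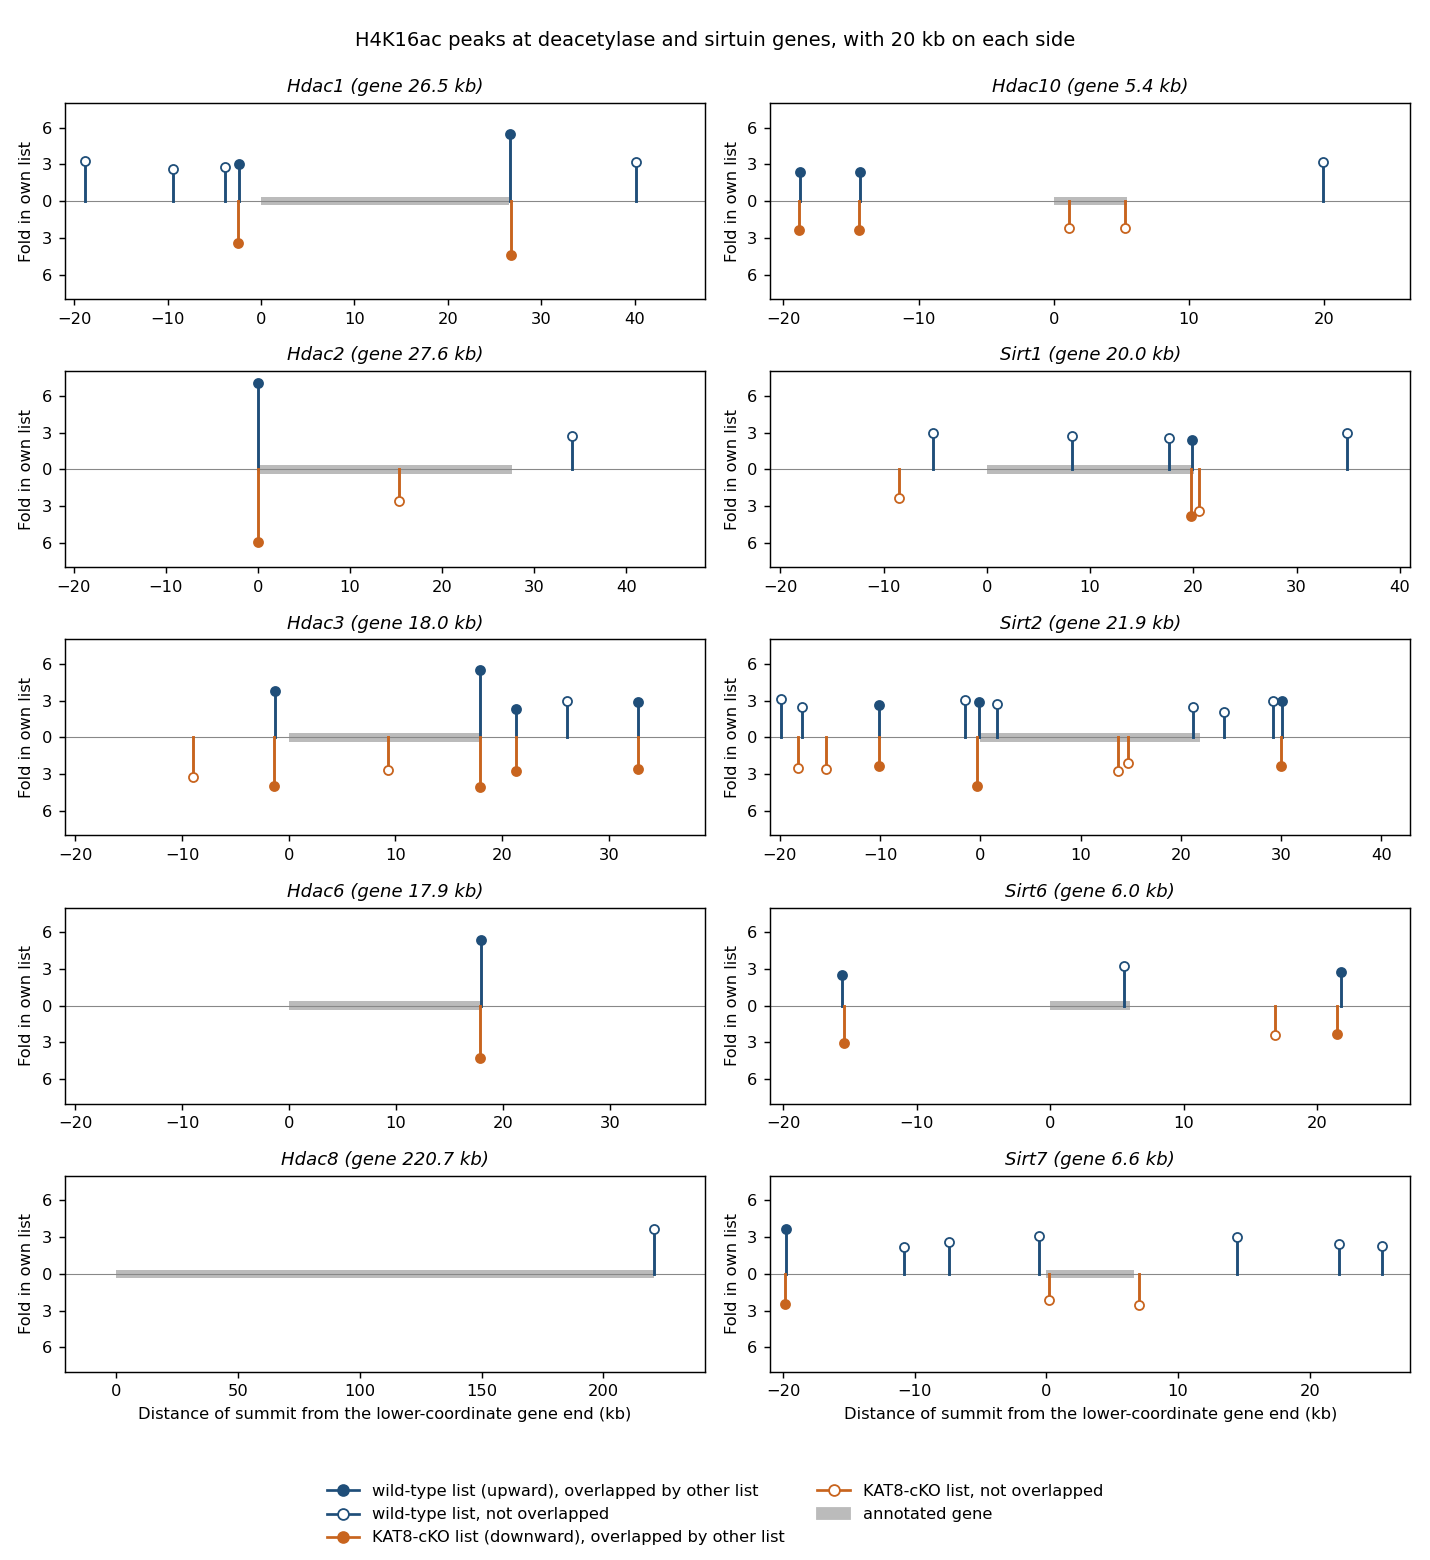
Peaks of both lists around the 10 genes, each panel plotting the fold of a peak in its own list against the distance of its summit from the lower-coordinate gene end in kb, wild-type upward and KAT8-cKO downward. Filled circles are peaks overlapped by the other list and open circles are not; the paired filled circles at the ends of Hdac1, Hdac2, Hdac3, Hdac6, Sirt1 and Sirt2 and the near-empty panels of Hdac6 and Hdac8 (1 wild-type peak each) are visible.

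The members fell into a strong and a weaker set in wild type. In the KAT8-cKO list the folds from Hdac1 (4.40) down to Sirt1 (3.84) ran close together. In wild type the order by end-peak fold was Hdac2 (7.03), Hdac3 (5.52), Hdac1 (5.48), Hdac6 (5.37), Hdac8 (3.66), Sirt6 (3.21), Sirt7 (3.12), Sirt2 (2.89) and Sirt1 (2.39), so among these 10 genes the marked deacetylases stood above the sirtuins. This does not extend to the whole family, since Hdac7 had a wild-type fold of 2.67 and Sirt3 one of 4.04. In the KAT8-cKO list it was Hdac2 (5.93), Hdac1 (4.40), Hdac6 (4.27), Hdac3 (4.03), Sirt2 (3.95), Sirt1 (3.84), Sirt7 (2.53) and Hdac10 (2.18). With 1 library a list, whether neighbours in either order differ beyond a spread between replicates could not be asked. Hdac2 ranked 89 of 10249 marked genes in wild type and 61 of 9473 in the KAT8-cKO list. Hdac3, Hdac1 and Hdac6 were stronger than 94%, 93.7% and 92.9% of marked genes in wild type, and than 84.4%, 90.9% and 88.8% in the KAT8-cKO list. Sirt1 was stronger than 4.66% of marked genes in wild type and 79% in the KAT8-cKO list, and Sirt2 than 24.4% and 82.7%. These are positions within lists of different length and do not measure a change.

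A fold of 5 or more was reached by 4 of 10 members in wild type (5.19% of all genes) and by 1, Hdac2, in the KAT8-cKO list (1.61%). A −log10 q of 5 or more was reached by 4 of 10 in wild type, Hdac1, Hdac2, Hdac3 and Hdac6 (12.4% of all genes), and by 3 in the KAT8-cKO list, the same without Hdac6 (5.99%). The median end-peak fold of marked members was 3.66 in wild type and 3.99 in the KAT8-cKO list, beside 3.42 and 3.12 over all marked genes.

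**Figure D3:**
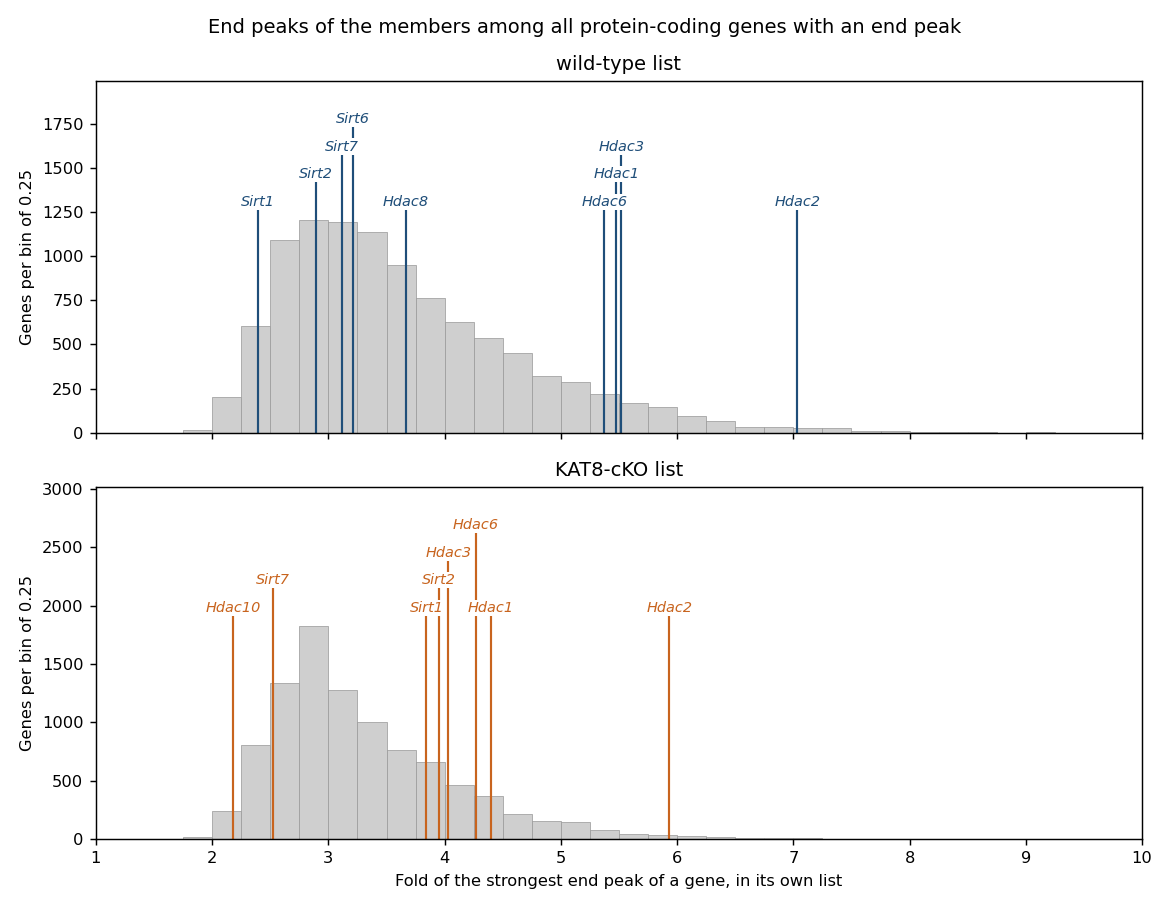
Grey bars count protein-coding genes by the fold of their strongest end peak, in bins of 0.25, for the wild-type list above and the KAT8-cKO list below (axis shown to 10), and labelled lines place the members at their own folds. Sirt1 and Sirt2 sit in the left part of the wild-type distribution (2.39 and 2.89) and on the right slope of the KAT8-cKO one (3.84 and 3.95).

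Away from the ends, 2 of 10 members had a body peak in wild type (44.2% of all genes) and 3 in the KAT8-cKO list (42.4%). A flanking peak was present at 8 of 10 (67.5%) and 7 of 10 (65.7%).

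Wild-type peaks at the ends of the members were overlapped by the other list about as often as those of all genes. The share of KAT8-cKO end peaks was lower, with a wide interval that includes the share over all genes. Body peaks did not overlap at all. Of 10 wild-type end peaks 6 were overlapped by a KAT8-cKO peak, 60% (exact 95% binomial interval 26.2 to 87.8), against 62.1% over the end peaks of all protein-coding genes. Of 11 KAT8-cKO end peaks 6 were overlapped, 54.5% (23.4 to 83.3), against 69.1%. The 6 pairs shared 267 to 798 bp, with summits 11 to 262 bp apart. In gene bodies 0 of 3 wild-type peaks (interval up to 70.8%) and 0 of 4 KAT8-cKO peaks (up to 60.2%) were overlapped, against 26.6% and 28.5%. With so few peaks, a lower share in bodies than that of all genes was not detectable. The intervals cover counting error over peaks only.

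In the flanks 11 pairs of peaks were common, which is 36.7% of 30 wild-type peaks (19.9 to 56.1), against 34% over all genes. It is 68.8% of 16 KAT8-cKO peaks (41.3 to 89), against 39%. Of the 11 KAT8-cKO peaks of these pairs 4 had a q-value under 0.05, and of the wild-type ones 6. Some of the pairs lie in the window of the same gene and are not independent, so the interval does not establish an excess. Of the 11 common flanking peaks 6 lay at an end of another gene. Over all classes 17 of 43 wild-type peaks, 39.5% (25 to 55.6), and 17 of 31 KAT8-cKO peaks, 54.8% (36 to 72.7), overlapped, beside 36% and 40.1% over the windows of all protein-coding genes. A q-value under 0.05 was reached by 58.1% of the wild-type peaks and 41.9% of the KAT8-cKO peaks near the members, and by 46.9% and 47% of the whole lists. The median number of peaks per member with its flanks was 4 in wild type and 3 in the KAT8-cKO list, and 3 in each over all genes.

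**Figure D4:**
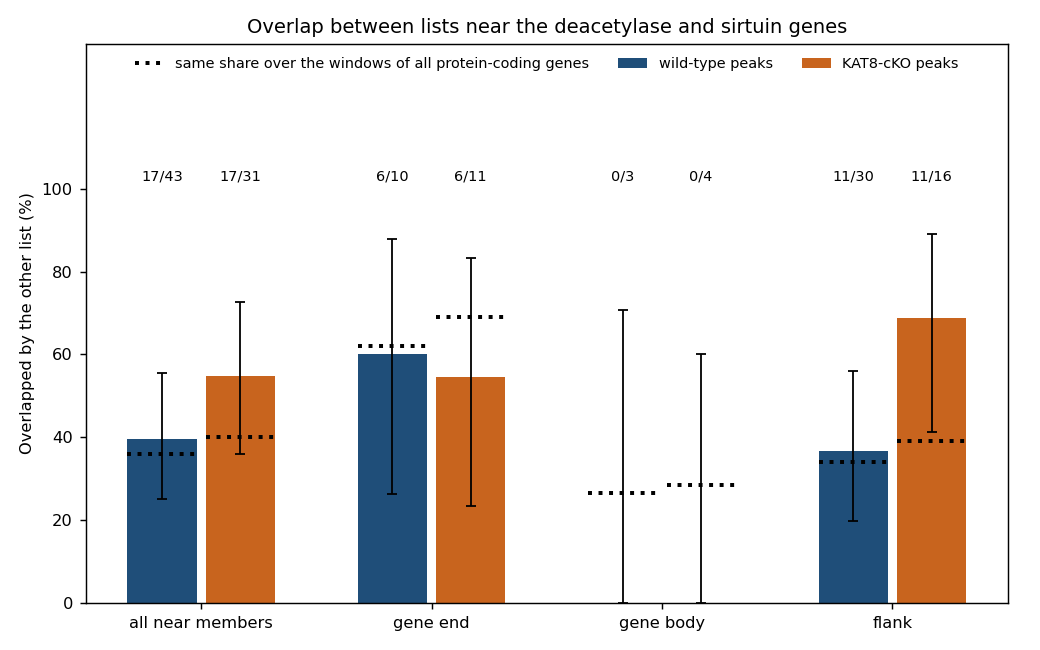
Percent of the peaks near the members that a peak of the other list overlapped by at least 1 bp, by class, for wild-type (blue) and KAT8-cKO (orange) peaks, with counts above the bars, exact 95% binomial intervals as error bars (counting error only) and the same share over the windows of all protein-coding genes as dotted lines. End peaks lie close to or below the dotted lines (60% and 54.5%), body peaks are at 0, and KAT8-cKO flanking peaks stand highest (68.8%).

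Most partner genes of these enzymes were marked as well. Of 38 other deacetylase, sirtuin and corepressor genes, 27 had an end peak in wild type, 29 in the KAT8-cKO list, 24 in both and 6 in neither, where 46.8%, 43.3%, 35.8% and 45.7% of all protein-coding genes fell in these classes. The highest wild-type folds were at the NuRD genes Mbd2 (6.55) and Gatad2a (5.80) and at Ing2 of the SIN3 complex (5.62). Their KAT8-cKO folds were 3.42, 5.12 and 3.67. Among the other deacetylases and sirtuins, Hdac5, Hdac7, Sirt3 and Sirt5 were marked in both lists, Sirt4 in wild type only (2.69) and Hdac4, Hdac9 and Hdac11 in neither. Of the class IIa genes, Hdac5 and Hdac7 were thus called and Hdac4 and Hdac9 not, but partly on weak calls. Hdac7 did not reach a q-value under 0.05 in either list (−log10 q 0.77 and 1.01). Hdac5 reached it in wild type only (3.04, and 1.19 in the KAT8-cKO list), as did Sirt5 (2.73 and 0.87). Sirt4 fell short of it (0.77), and Sirt3 reached it in both lists (4.99 and 2.41).

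Against the same shares of all genes, 7 of 10 SIN3 genes were marked in both lists, with Brms1 in wild type only (3.66) and Sin3b in the KAT8-cKO list only (2.79). All 9 NuRD genes had a KAT8-cKO end peak and 7 a wild-type one. Without a wild-type peak were Mta1 (2.28 in the KAT8-cKO list, −log10 q 0.55) and Chd4 (2.73, 1.41), which encodes the remodelling ATPase of the complex. Of 7 CoREST genes 5 were marked in both lists and Kdm1a, the demethylase of the complex, in the KAT8-cKO list only (2.99). Of 4 NCoR complex genes, Ncor1 was marked in both lists (4.30 and 3.53), Gps2 in wild type only (2.00, with −log10 q 0.25) and Tbl1xr1 in the KAT8-cKO list only (2.78, 1.01).

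Genes with the same number of end, body and flanking peaks in both lists as a member were counted as a measure of likeness over 6 counts. There were 191 for Hdac6, 133 for Hdac8, 33 for Sirt6, 32 for Hdac2, 8 for Hdac1, 5 for Hdac3, 3 for Hdac10, 2 for Sirt1, 1 for Sirt7 and 0 for Sirt2. The nearest in wild-type end fold were Atxn7l3b for Hdac6 (5.37), Pamr1 for Hdac8 (3.66), Khdc4 for Sirt6 (3.18) and 1810058I24Rik for Sirt1 (2.46). The nearest was farther off for the other members with a match and a wild-type end peak. It was Maco1 (6.10) for Hdac1, Acbd7 (6.23) for Hdac2, Dgkq (4.39) for Hdac3 and Ska2 (4.64) for Sirt7. An exact match on 6 counts becomes rarer as the counts rise, so the small numbers for Sirt2 and Sirt7 do not show that their surroundings are unusual.

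As checks on the cells and labels, 10 of 12 macrophage markers had a wild-type end peak (46.8% of all genes) and 6 a KAT8-cKO one (43.3%), with Lyz2 unmarked in both lists. Of the defining genes, Csf1r and Adgre1 had weak peaks in wild type only (2.06 and 2.58). B cell markers had 0 of 4 in either list, T cell markers 3 and 1 of 5, neutrophil markers 1 of 4 in each, dendritic cell markers 2 of 4 in each and fibroblast markers 2 and 1 of 4. With so few genes these counts separate the cell types poorly, and the highest marker folds were at the dendritic cell gene Xcr1 (4.63 and 4.47), above the highest macrophage marker, Mertk (3.62 and 3.20). Kat8 itself had a weak wild-type end peak (2.46, −log10 q 0.78) and none in the KAT8-cKO list, which does not show whether the gene was deleted.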

How the data were processed

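Peak lists of 2 CUT&Tag libraries were used, 1 per genotype, grouped by the genotype label. The submitters' processing notes name mm10 as the build and list MACS2 2.2.7.1, Bowtie 0.12.8 and DiffBind without saying what each did. The sources used here give no calling settings, control library or number of reads, so depth is unknown. The authors deposited for each peak a score (not used here), a fold ratio over background, the p-value and q-value as −log10, and a summit offset. The weakest peaks had a −log10 p of 2.01 in both deposited lists, so many calls are weak. How duplicates were treated, and regions prone to artefact, were not checked here.

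Peaks were read 1-based and matched to gene positions of RefSeq GRCm38.p6, with all 10 genes found. Peaks within 1 kb of either gene end were end peaks, others overlapping the gene were body peaks, and the rest within 20 kb were flanking peaks. Overlap of at least 1 bp counted as shared. Strand and transcript starts came from the RefSeq promoter table. Python 3.11.15, pandas 2.3.3 and scipy 1.17.1 were used; the overlap search was tested on simulated data. All members were named by rule, as were related genes marked in 1 list only and the 3 with the highest wild-type fold; other related genes and neighbours are named as members of fixed lists or for their position. A gene of the fixed lists is not reported here. Motifs were chosen after the promoters had been seen. The members and lists were chosen with earlier results of these data known.

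Alternatives were other end windows, stricter thresholds, summit position, stricter overlap and a narrower flank.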

Additional observations from a re-analysis of the deposited data

How the results depend on the processing

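With 500 bp or 3 kb windows, or with the summit required inside the window, the same 7 genes stayed marked in both lists, Hdac8 and Sirt6 in wild type only and Hdac10 in the KAT8-cKO list only. At a q-value under 0.05, or with the strongest 20000 peaks of each list, 5 genes were marked in both (Hdac1, Hdac2, Hdac3, Hdac6 and Sirt2), Hdac8, Sirt6 and Sirt7 in wild type only and Sirt1 in the KAT8-cKO list only. At a −log10 q of at least 5 the counts fell to 4 genes in wild type, 3 in the KAT8-cKO list and 3 in both. Shared peaks numbered 17 in each direction, 16 with an overlap of 50% of the shorter peak, 15 by summits within 250 bp, 7 at a q-value under 0.05 (of 25 wild-type and 13 KAT8-cKO peaks), 7 with the strongest 20000 (of 22 and 13) and 9 with flanks of 5 kb (of 19 and 18). In the last 3 settings fewer peaks entered, and in the 2 before them the same peaks were matched more strictly. Of 17 end-peak folds of single genes, each recomputed under 6 settings, 16 recomputed values were lost because no end peak was left, 4 changed and 82 did not; a stricter threshold can only keep or remove a strongest peak. Within 3 kb the strongest wild-type fold became 2.53 at Sirt1 and 3.06 at Sirt2, and with 500 bp or summits the KAT8-cKO fold at Hdac10 became 2.17. No paired analysis was possible because each group is 1 library. Depth is unknown, and without replicates no peak present in 1 list can be called a change.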
